A study of Mus musculus with 36 samples.

Results

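Skin wounds of the PD arm were compared between day 12 and day 4 after injury, using the 12 PD libraries of those days among the 36 libraries of the series. The libraries were chosen by label alone: 6 wounds taken at day 12 and 6 taken at day 4, with all genes read. The tissue is mouse skin, frozen after harvest, from which polyadenylated RNA was sequenced and read counts per gene were deposited. The remaining libraries are 5 PD wounds of day 2, 16 wounds of an arm called P (5 at day 2, 5 at day 4 and 6 at day 12) and 3 pieces of unwounded skin. The labels do not spell out the letters P and PD, and give no strain, genotype, age, agent or animal for any library. The title of the series concerns clearance of cells that express much p21, the product of Cdkn1a. Because the labels do not tie libraries to animals, p-values measure the spread between libraries. That spread was estimated for each gene within groups over all 36 libraries.

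Skin wounds heal in overlapping phases. Neutrophils and then monocytes enter first, keratinocytes migrate under the scab from the wound edge and from hair follicles, and fibroblasts then replace the provisional matrix with collagen. Hair follicles cycle between rest and growth, and a growing follicle builds a keratin shaft and an inner root sheath above a dermal papilla and is pigmented by melanocytes.

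Totals ran from 16.146 to 35.659 M counts in PD day 12 libraries and from 11.807 to 41.315 M in PD day 4 libraries. The basal keratinocyte gene Krt14 stood at 931 CPM (counts scaled to library size) or more in each of the 12, so each held keratinocyte RNA. Adult skeletal muscle genes summed to 7549, 38194 and 108109 CPM at day 12 and 19111, 34157 and 105518 CPM at day 4 (lowest, median and highest library), so the share of muscle differed widely within both days. Some libraries stood apart from their group. PD day 12 replicate 2 held more neutrophil and chemokine RNA than the other day 12 wounds, PD day 12 replicates 1 and 5 held less melanocyte RNA, and replicate 5 also held little hair keratin RNA. PD day 4 replicate 2 held more inner root sheath RNA than the other day 4 wounds. In the P arm, day 4 replicate 3 held 4305 CPM of summed hair shaft Krtap RNA, whereas the other P day 4 wounds held 2.9 to 8.65 CPM, and day 12 replicate 2 held 11.3 CPM, whereas the other P day 12 wounds held 3468 CPM or more. In bulk tissue, fewer cells of a type and less RNA per cell cannot be told apart.

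Of 20657 genes tested with edgeR's quasi-likelihood test, 3244 were higher and 3224 lower in PD wounds at day 12 than at day 4, at an adjusted p under 0.05. These are 15.7% and 15.6% of the genes tested, and they are the shares against which each gene group below is read. Changes over 2-fold were found for 1554 higher and 1786 lower genes, and over 8-fold for 424 and 511. The median log2 fold change of all genes tested was -0.003. The even split depended on the scaling: with library totals alone in place of TMM factors, 5204 genes were higher and 2230 lower, 70.0% higher against 50.2%, and the median of all genes moved up by 0.20 on the log2 scale. Without PD day 12 replicate 2 the counts were 3051 higher and 3107 lower. Without PD day 12 replicate 5 they were 3379 and 2997. With the 12 PD libraries fitted alone, 2491 genes were higher and 2497 lower. Where 3 or fewer members of a list below were called in a direction, leaving out 1 PD library moved that count by up to 2.

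**Figure D1:**
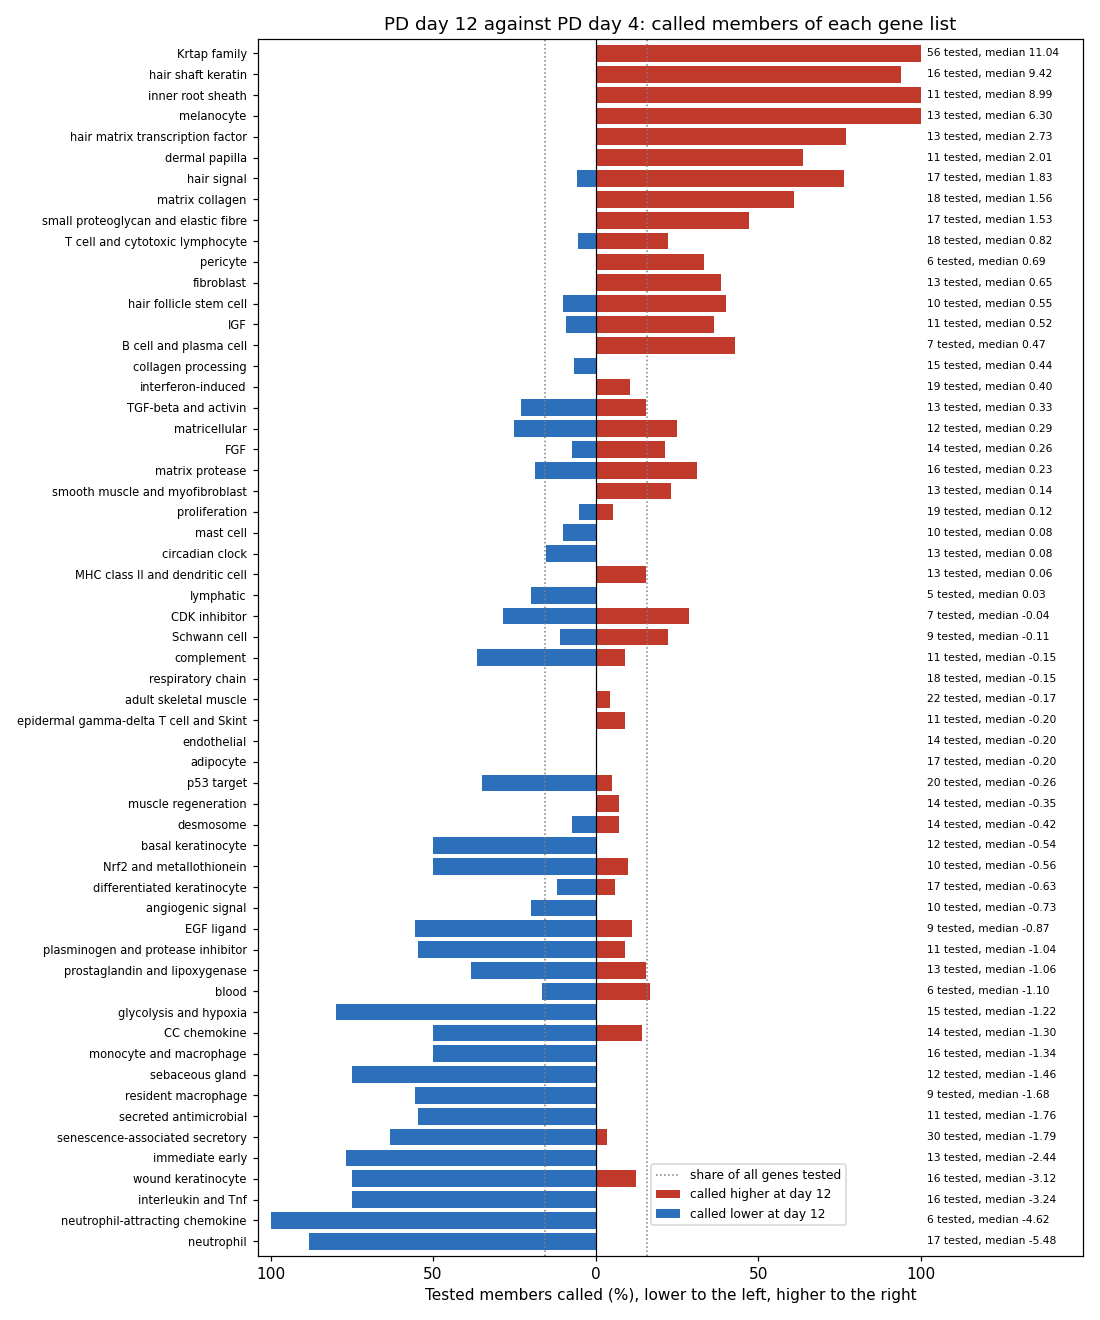
Share of the tested members of each of 58 gene lists called lower (bars to the left) or higher (bars to the right) in PD wounds at day 12 than at day 4, with the number of members tested and their median log2 fold change, genes without counts at day 4 set at their bound. Dotted lines mark the 15.7% and 15.6% of all genes tested. Hair, pigment and collagen lists lie at the top, and neutrophil, chemokine and interleukin lists at the bottom.

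Cdkn1a, which encodes the cyclin-dependent kinase inhibitor p21, was lower at day 12. Levels are given from here on as the lowest, median and highest of the 6 libraries of a day, and differences as log2 fold changes of day 12 over day 4 with their standard errors. Cdkn1a had 298, 347 and 433 CPM at day 12, against 389.9, 736 and 823 CPM at day 4 (-0.90 ± 0.18, adjusted p = 0.000244). The days overlapped in PD day 4 replicate 2, at 389.9 CPM, and the other 5 day 4 wounds lay above the day 12 range. Other CDK inhibitor genes went in both directions. Cdkn2a, whose locus encodes p16 and p19Arf, was low but had 1.01, 1.72 and 4.58 CPM at day 12 against 0.245, 0.563 and 0.799 CPM at day 4, without overlap (1.87 ± 0.46, adjusted p = 0.00227). Its neighbour Cdkn2b, which encodes p15, was 1.83-fold higher with overlap (0.87 ± 0.19, adjusted p = 0.000687), and Cdkn2d was 1.39-fold lower (-0.47 ± 0.11, adjusted p = 0.00156). The remaining 3 of 7 CDK inhibitor genes tested passed in neither direction.

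Of 20 p53 target genes besides Cdkn1a, 7 fell and 1 rose. Fas, which encodes a death receptor, had 3.65, 5.21 and 8.61 CPM at day 12 against 16.2, 36.7 and 48.7 CPM at day 4 (-2.62 ± 0.30, adjusted p = 8.1e-08). Btg2, an antiproliferative gene, was 3.46-fold lower (-1.79 ± 0.25, adjusted p = 2.13e-06) and Gadd45a, a DNA damage and stress gene, 3.38-fold lower (-1.76 ± 0.31, adjusted p = 5.21e-05). Fas and Btg2 levels did not overlap between days. Of 30 genes commonly counted as the senescence-associated secretory set, 19 fell and 1 rose, with a median log2 fold change of -1.79. Of these 30 genes, 12 also stand on the chemokine and interleukin lists described next, so the counts are not separate observations.

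Neutrophil genes had the lowest median change of the 58 lists. Of 17 neutrophil genes tested, 15 were lower at day 12 and 0 higher, with a median log2 fold change of -5.48. Their summed level was 40.4, 77.3 and 537 CPM at day 12, against 3389.7, 7961 and 16619.6 CPM at day 4. The highest value at day 12, PD day 12 replicate 2, was over 6 times the next, and still below every day 4 wound. S100a9, a calcium-binding protein abundant in neutrophils, had 0.781, 4.98 and 172 CPM at day 12 and 1328, 3303 and 7823 CPM at day 4 (-6.93 ± 1.22, adjusted p = 4.77e-05). Retnlg, a neutrophil resistin-like gene, had 0.0592, 0.0986 and 6.46 CPM at day 12 against 77.5, 244 and 919 CPM at day 4 (-8.22 ± 1.19, adjusted p = 4.52e-06). Ly6g, the surface antigen by which mouse neutrophils are sorted, had 0 counts in the 6 day 12 libraries and 2.49, 9.18 and 35.2 CPM at day 4. Set at 3 counts over the day 12 group, it was at least 789-fold lower than its day 4 mean. The activating receptor Trem1 (-6.82 ± 1.21, adjusted p = 6.65e-05), the surface protein Cd177 (-6.94 ± 0.71, adjusted p = 1.77e-08) and the collagenase Mmp8 (-6.09 ± 0.85, adjusted p = 2.07e-06) were likewise lower without overlap. Without PD day 12 replicate 2, 15 members were lower with a median of -6.51.

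The chemokines that draw neutrophils and the growth factor that raises them fell as well. Of 6 such genes tested, 6 were lower at day 12; Il17a had too few counts to test, with 1 count at day 12 and 0 at day 4. Cxcl2, a ligand of Cxcr2, had 0, 0.941 and 458 CPM at day 12 and 928, 2493 and 3680.0 CPM at day 4 (-4.83 ± 1.42, adjusted p = 0.00896). The value of 458 CPM belonged to PD day 12 replicate 2, and the next highest day 12 library had 26.3 CPM. Cxcl3 (-5.40 ± 1.26, adjusted p = 0.0012) and Csf3, which encodes G-CSF (-5.0 ± 1.0, adjusted p = 0.000246), were likewise highest at day 12 in replicates 2 and 4. Without replicate 2, the median of the 6 genes was -7.61 in place of -4.62. Of 14 CC chemokine genes, 7 fell and 2 rose, but 0 were called higher without PD day 12 replicate 1 or 5 or PD day 4 replicate 1. Ccl3, a chemokine that draws monocytes and T cells, had 0.716, 1.94 and 123 CPM at day 12, against 185, 571 and 849 CPM at day 4 (-4.47 ± 1.04, adjusted p = 0.00121). Ccl4, its close relative, had 0.813, 1.86 and 95.7 CPM against 148, 402 and 684 CPM (-4.57 ± 0.97, adjusted p = 0.000467), and for both the highest day 12 library was again replicate 2.

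Interleukin and Tnf genes were lower in 12 of 16 members and higher in 0, with a median of -3.24. Il1b, which encodes the inflammasome-processed cytokine IL-1beta, had 0.809, 2.53 and 172 CPM at day 12 and 1101, 2637 and 4288 CPM at day 4 (-6.25 ± 1.13, adjusted p = 6.85e-05). Tnf had 1.27, 2.63 and 42.3 CPM against 73, 246 and 399 CPM (-4.68 ± 0.71, adjusted p = 6.83e-06), and oncostatin M, encoded by Osm, was 44.6-fold lower (-5.48 ± 0.82, adjusted p = 5.34e-06). Day 12 and day 4 libraries did not overlap for these genes, although PD day 12 replicate 2 lay above its group for each. Hdc, which makes histamine, was 62.4-fold lower (-5.96 ± 0.92, adjusted p = 8.49e-06), while the other 9 mast cell genes tested passed in neither direction. Prostaglandin and lipoxygenase genes fell in 5 of 13 members and rose in 2. Ptgs2, the inducible cyclooxygenase, was 27.3-fold lower (-4.77 ± 0.90, adjusted p = 0.000124). Of the secreted antimicrobial genes, 6 of 11 fell, among them the protease inhibitor Slpi (-6.12 ± 0.80, adjusted p = 7.11e-07) and the siderophore-binding lipocalin Lcn2 (-4.94 ± 0.48, adjusted p = 7.96e-09).

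Macrophage genes changed in part. Of 16 monocyte and macrophage genes, 8 were lower and 0 higher, with a median of -1.34 and summed levels of 662, 929 and 1986 CPM at day 12 against 4002, 4539.6 and 7056 CPM at day 4. The lipopolysaccharide co-receptor Cd14 had 6.89, 13.4 and 131 CPM at day 12 and 925, 2104 and 3945 CPM at day 4 (-5.99 ± 0.80, adjusted p = 9.82e-07). Arginase 1, encoded by Arg1, was 21.1-fold lower (-4.40 ± 0.71, adjusted p = 1.58e-05), Chil3 48.8-fold lower (-5.61 ± 0.74, adjusted p = 7.83e-07) and the integrin Itgam 9.11-fold lower (-3.19 ± 0.49, adjusted p = 8.78e-06). Neutrophils also carry Cd14 and Itgam. Cd14 alone supplied 3945 of the 5938.5 summed CPM of PD day 4 replicate 3, and 925 of the 4438 CPM of replicate 2. The summed level is therefore not that of macrophages alone. The macrophage antigen Adgre1 (F4/80) did not pass, with 12.3, 15.6 and 57.5 CPM at day 12 and 18.3, 45.6 and 79.8 CPM at day 4 (-1.0 ± 0.55, adjusted p = 0.177). It passed, as lower, without PD day 12 replicate 1 (-1.47, adjusted p = 0.049), with 2 surrogate variables (-1.25, adjusted p = 0.0183) and in the 12 libraries alone with the replicate block (-1.03, adjusted p = 0.00669). Of 9 resident macrophage genes 5 were lower, including Cd163, a haemoglobin scavenger receptor (-2.86 ± 0.89, adjusted p = 0.0134). Replicates 1 and 2 held the highest Cd163 levels on both days, so that the days overlapped, and without PD day 4 replicate 2 the list had 3 lower members. Spp1, which encodes osteopontin, was 25-fold lower (-4.64 ± 0.86, adjusted p = 9.3e-05).

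Most lymphocyte genes did not pass. Of 18 T cell and cytotoxic lymphocyte genes 4 rose and 1 fell, and of 7 B cell and plasma cell genes 3 rose. Lck, the T cell kinase, had 4.73, 6.82 and 8.7 CPM at day 12 and 2.52, 3.2 and 3.57 CPM at day 4, without overlap (1.12 ± 0.22, adjusted p = 0.000215). Klrk1, which encodes the NKG2D receptor, was 2.73-fold higher with overlap (1.45 ± 0.40, adjusted p = 0.006). Igkc, the immunoglobulin kappa constant gene, had 1.35, 5.63 and 17.9 CPM against 0, 0.743 and 0.866 CPM (3.84 ± 0.71, adjusted p = 8.58e-05). Of 19 interferon-induced genes 2 rose and 0 fell, at or under the shares of all genes. Among them was Cxcl9, a T cell chemokine, 6.70-fold higher (2.74 ± 0.43, adjusted p = 1.16e-05), whereas Ifit1 had 4.39, 17.4 and 54.9 CPM at day 12 and 10.8, 15.1 and 16.6 CPM at day 4 (0.82 ± 0.59, adjusted p = 0.312). The MHC class II and dendritic cell list (2 of 13 higher), the epidermal gamma-delta T cell list (1 of 11 higher) and the blood list (1 of 6 higher and 1 lower) were also near the shares of all genes. Complement genes fell in 4 of 11 members and rose in 1, with the receptor C5ar1 at -3.87 ± 0.69, adjusted p = 5.8e-05 and C3, the central component, at -2.0 ± 0.69, adjusted p = 0.0249. Without PD day 12 replicate 4 or 6, 2 complement genes were called lower. The C3 call was lost when any of 4 libraries was left out (PD day 12 replicates 4, 5 or 6, or PD day 4 replicate 2), at adjusted p of 0.0587 to 0.0618, and without the filter on low counts (adjusted p = 0.0639).

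**Figure D2:**
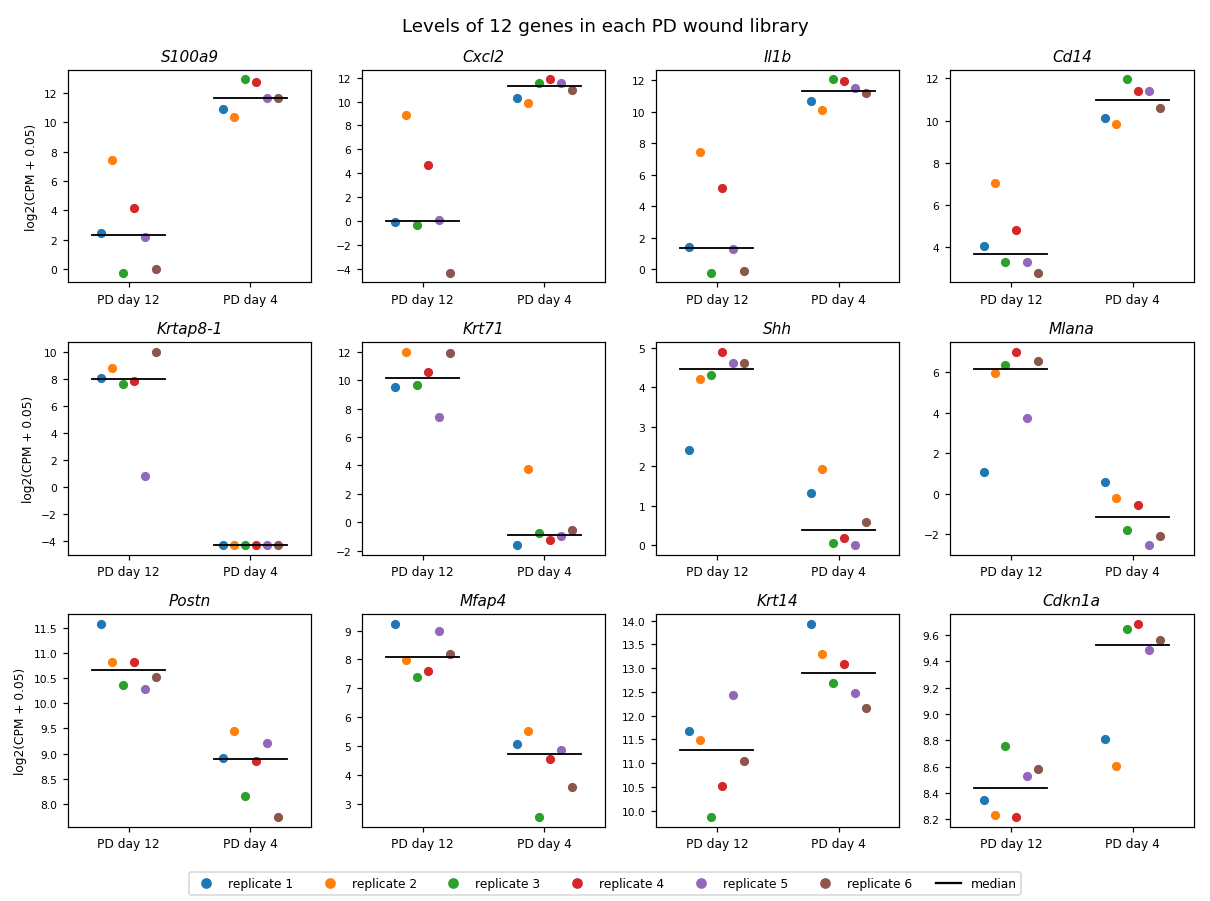
Level of 12 genes in each PD library, as log2(CPM + 0.05), with day 12 left of day 4, 1 colour per replicate number and a line at the median. Inflammatory genes (top row) are highest at day 12 in replicate 2, hair and pigment genes (middle row) are lowest there in replicates 1 or 5, and Krtap8-1 has 0 counts in the 6 day 4 libraries.

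Genes of the hair fibre and its sheath had the largest median increases of the 58 lists. The promoters of 4 genes are shown as examples of genes that were much higher or much lower at day 12 and hold a TATAAA hexamer, the core of the TATA box, which was found in most hair fibre promoters. Each is the 120 bases before the annotated start, 5′ to 3′, from RefSeq on GRCm38.p6, with TATAAA in capitals; Krtap8-1, Krt34 and Krt71 were higher at day 12 and Il1b was lower. Krtap8-1 is at chr16:89487953-89488072, Krt34 at chr11:100041555-100041674, Krt71 at chr15:101743098-101743217 and Il1b at chr2:129371140-129371259, each on the minus strand.
Krtap8-1: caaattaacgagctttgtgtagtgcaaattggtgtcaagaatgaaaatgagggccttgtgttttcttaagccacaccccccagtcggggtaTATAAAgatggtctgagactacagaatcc
Krt34: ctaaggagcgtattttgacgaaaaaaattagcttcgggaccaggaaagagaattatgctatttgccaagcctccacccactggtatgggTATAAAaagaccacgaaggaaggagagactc
Krt71: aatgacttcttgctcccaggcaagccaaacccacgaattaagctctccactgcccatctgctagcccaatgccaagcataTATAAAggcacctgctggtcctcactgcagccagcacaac
Il1b: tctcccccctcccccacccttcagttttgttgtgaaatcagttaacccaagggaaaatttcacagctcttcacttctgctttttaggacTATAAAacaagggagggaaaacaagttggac
The hexamer began 29, 31, 40 and 31 bases before the start in Krtap8-1, Krt34, Krt71 and Il1b.

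TATAAA was searched on both strands in windows of 300 bases, 250 before and 50 after each start. It was present in 53 of 68 promoters (77.9%) of hair fibre genes called higher, that is the Krtap family, hair shaft keratins and inner root sheath genes with a promoter entry. It was present in 16 of 32 promoters, belonging to 27 genes, of the neutrophil, chemokine and interleukin genes called lower, against 9.1% of promoters of tested genes and 13.6% of all promoters in the table. The whole set of genes called higher held it in 9.7% of promoters and the whole set called lower in 10.1%. TGANTCA, the AP-1 motif, was in 5.2% of promoters of genes called higher and 9.0% of those called lower, against 6.3% for tested genes. In the smaller sets it was in 11 of the 68 hair fibre promoters (16.2%) and 6 of the 32 others (18.8%). It was thus above the share of tested genes in both, although the first set rose and the second fell. CAGCTG, an E-box motif, was in 16% of promoters of genes called higher, 17.3% of those called lower and 16.5% for tested genes. In the smaller sets it was in 7 of 68 and 8 of 32. These hexamer and heptamer matches are descriptions of the windows.

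Keratin-associated proteins, encoded by the Krtap genes, cross-link keratin filaments in the hair shaft. Of 58 Krtap genes in the files 56 were tested and 56 were higher at day 12. The family was gathered by symbol after its values were seen. Of the 2 not tested, Krtap20-2 had 698 counts at day 12 and 0 at day 4, and Krtap13 had 2 and 0. For 29 of the 56, no read was counted in the day 4 libraries, and with these at their bound the median log2 fold change was 11.04, against 12.24 for the fitted values. Those 29 could pass the filter on low counts only through libraries of other groups. The count of 56 of 56 higher was therefore in part fixed by that filter. Summed levels were 17.1, 2284 and 11225 CPM at day 12, against 0.28, 0.948 and 9.53 CPM at day 4. The lowest day 12 library was replicate 5, and the next lowest had 1318 CPM. Krtap8-1 had 1.69, 245 and 1020.0 CPM at day 12 and 0 counts at day 4. With day 4 set at 3 counts over the group, its day 12 mean was at least 18200-fold higher. By the same bound on the mean Krtap3-1, with 0.531, 70.1 and 308 CPM at day 12, was at least 5400-fold higher. These bounds do not hold for each library. Reads shared between these close relatives are uncertain. With limma-voom, which weights libraries, 10 of the 56 were called higher.

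Hair shaft keratins rose in 15 of 16 genes and inner root sheath genes in 11 of 11. No read was counted at day 4 for 2 of the 16 and 1 of the 11. Those could pass the filter on low counts only through libraries of other groups, so they could not have been called lower. Krt34, a cortex keratin, had 0.299, 104 and 516 CPM at day 12 and 0 counts at day 4, at least 8300-fold higher by the same bound on the mean. Krt71, a type II keratin of the inner root sheath, had 172, 1159 and 4085 CPM at day 12, against 0.286, 0.509 and 13.5 CPM at day 4 (9.44 ± 1.84, adjusted p = 0.000183). Krt25, a type I keratin of the same sheath, had 144, 786 and 2671 CPM against 0, 0.0466 and 10.8 CPM (9.34 ± 1.95, adjusted p = 0.000381). The highest day 4 value of both genes came from PD day 4 replicate 2, whose next neighbours had 0.642 CPM of Krt71 and 0.122 CPM of Krt25. Days did not overlap for any of these genes. With limma-voom, Krt34 (adjusted p = 0.0937) and Krtap3-1 (adjusted p = 0.0789) missed the threshold.

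Signals and transcription factors of the growing follicle rose too. Of 17 hair signal genes 13 were higher and 1 lower, and of 13 hair matrix transcription factors 10 were higher and 0 lower. Shh, the hedgehog ligand of the hair matrix, had 5.32, 22.1 and 29.9 CPM at day 12 and 0.959, 1.27 and 3.74 CPM at day 4 (3.51 ± 0.47, adjusted p = 9.82e-07). Wnt10b, a Wnt ligand of early follicle growth, had 13.2, 49.1 and 71.8 CPM against 1.16, 2.54 and 4.33 CPM (4.12 ± 0.43, adjusted p = 1.94e-08), and Lef1, a nuclear partner of beta-catenin, 10.1, 83.4 and 135 CPM against 0.751, 1.94 and 3.76 CPM (5.04 ± 0.76, adjusted p = 6.17e-06). These 3 genes did not overlap between days, and PD day 12 replicate 1 had the lowest day 12 level of each. Among the factors, Msx2 was 39.1-fold higher (5.29 ± 0.76, adjusted p = 3.08e-06), Dlx3 29.6-fold (4.89 ± 0.73, adjusted p = 5.66e-06) and Foxe1 53.9-fold (5.75 ± 1.08, adjusted p = 0.000118). In contrast to shaft genes, PD day 12 replicate 5 lay well above day 4 for Shh, at 24.4 CPM.

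Of 11 dermal papilla genes 7 rose and 0 fell. Corin, a serine protease of the papilla, had 2.54, 5.55 and 13.4 CPM at day 12 and 0, 0.0786 and 0.208 CPM at day 4 (5.89 ± 1.02, adjusted p = 4.06e-05). The R-spondin Rspo4 (2.78 ± 0.54, adjusted p = 0.00018) and the homeobox gene Alx4 (2.69 ± 0.39, adjusted p = 3.68e-06) were higher without overlap. Of 10 hair follicle stem cell genes 4 rose and 1 fell, among them the stem cell receptor Lgr5 (1.68 ± 0.41, adjusted p = 0.00203) and the hedgehog effector Gli3 (1.71 ± 0.25, adjusted p = 4.75e-06). The summed level of that list was 507, 948 and 2095 CPM at day 12 and 678, 900.3 and 1172 CPM at day 4, both below the 4044 CPM or more of unwounded skin.

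Melanocyte genes rose in 13 of 13 members, with a median of 6.30. Their summed level was 77.6, 1024 and 1644 CPM at day 12 and 27, 35 and 47.5 CPM at day 4. PD day 12 replicate 1, at 77.6 CPM, and replicate 5, at 224 CPM, lay far below the other 4 day 12 wounds, which had 885 CPM or more. Mlana, a melanosome protein, had 2.1, 72 and 129 CPM at day 12 and 0.125, 0.442 and 1.43 CPM at day 4 (6.72 ± 0.87, adjusted p = 6.61e-07). Slc24a5, a melanosomal cation exchanger, was 106-fold higher (6.73 ± 0.99, adjusted p = 4.34e-06). Ptgds, a prostaglandin D2 synthase, was 12.4-fold higher (3.64 ± 0.58, adjusted p = 1.43e-05), with day 12 replicate 1 at 3.58 CPM inside the day 4 range. The rank of libraries for pigment genes was not that for hair shaft genes, since day 12 replicate 1 held 2716 CPM of summed Krtap RNA.

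**Figure D3:**
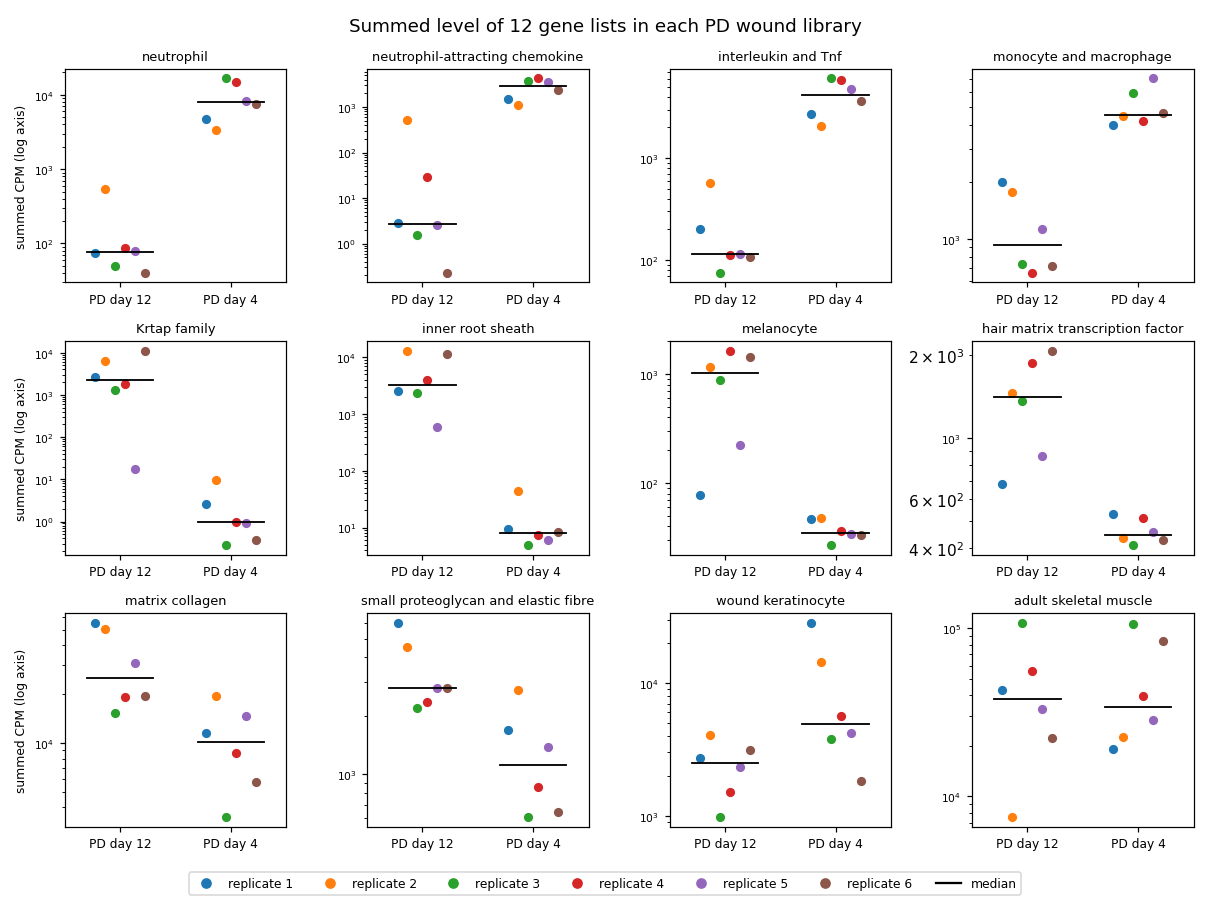
Summed CPM of 12 gene lists in each PD library on a log axis, with day 12 left of day 4, 1 colour per replicate number and a line at the median. Neutrophil and chemokine sums are highest at day 12 in replicate 2, the Krtap sum is lowest there in replicate 5, melanocyte sums in replicate 1, and adult muscle sums overlap over the range of both days.

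Matrix genes rose at day 12. Of 18 matrix collagen genes 11 were higher and 0 lower, with a median of 1.56 and summed levels of 15364, 25244 and 55098 CPM against 3490.5, 10119.9 and 19407 CPM. Col1a1, the main chain of type I collagen and named here after its values were seen, had 4934, 9541 and 17770.0 CPM at day 12 and 1054, 3043 and 5601 CPM at day 4 (1.70 ± 0.54, adjusted p = 0.0146). Col14a1, a fibril-associated collagen (2.43 ± 0.74, adjusted p = 0.0111), Col8a1, a network-forming one (2.37 ± 0.45, adjusted p = 0.000135), and Col6a2, a chain of beaded filaments (1.80 ± 0.44, adjusted p = 0.00198), rose without overlap between days. Of 15 collagen-processing genes 0 rose and 1 fell: P4ha1, a prolyl hydroxylase subunit induced by low oxygen (-1.0 ± 0.25, adjusted p = 0.00262). Replicates 1 and 2 stood highest among day 12 libraries for the summed collagens, and replicate 2 among day 4 libraries. The count of collagen genes called higher was 7 without any 1 of PD day 12 replicates 1 or 2 or PD day 4 replicates 3 or 6.

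Of 17 small proteoglycan and elastic fibre genes 8 rose and 0 fell, with a median of 1.53. Mfap4, which binds elastic fibres, had 169.7, 272 and 603 CPM at day 12 and 5.83, 26.6 and 46.2 CPM at day 4 (3.74 ± 0.51, adjusted p = 1.36e-06). Fibromodulin, encoded by Fmod (2.53 ± 0.47, adjusted p = 8.94e-05), and asporin, encoded by Aspn (2.92 ± 0.74, adjusted p = 0.00262), were also higher, Aspn with overlap. Matricellular genes went both ways, 3 of 12 higher and 3 lower. Periostin, encoded by Postn, had 1251, 1633 and 3056 CPM at day 12 and 214, 472 and 694 CPM at day 4 (1.98 ± 0.36, adjusted p = 6.21e-05), while thrombospondin 1, encoded by Thbs1, had 42.6, 64 and 270.5 CPM and 694, 1879 and 3209 CPM (-3.99 ± 0.55, adjusted p = 1.47e-06). Matrix proteases were likewise mixed, 5 of 16 higher and 3 lower: Mmp11, stromelysin 3, rose (2.45 ± 0.49, adjusted p = 0.000242) and Mmp9, gelatinase B of neutrophils, fell (-4.54 ± 0.63, adjusted p = 1.9e-06).

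Fibroblast genes rose in 5 of 13 members and fell in 0. Lrrc15, a marker of activated fibroblasts, had 178, 310.0 and 536 CPM at day 12 and 15.7, 61.6 and 144 CPM at day 4 (2.36 ± 0.48, adjusted p = 0.000323). Dlk1, a preadipocyte and fibroblast progenitor gene, was 23.5-fold higher (4.55 ± 0.69, adjusted p = 5.92e-06) and Dpt, dermatopontin, 3.94-fold higher (1.98 ± 0.51, adjusted p = 0.00339). The day 12 libraries ranked otherwise for Dlk1 than for the summed fibroblast genes. Replicate 4 had 50.4 CPM of Dlk1 and a sum of 958 CPM, and replicate 2 had 5.72 and 2330 CPM. Of 13 smooth muscle and myofibroblast genes 3 rose and 0 fell, the actin-binding protein Tagln among them (0.79 ± 0.25, adjusted p = 0.0156). Acta2, an actin gene of both smooth muscle and myofibroblasts, had 124, 188 and 295 CPM at day 12 and 143, 202 and 362 CPM at day 4 (-0.12 ± 0.28, adjusted p = 0.792). The pericyte proteoglycan Cspg4 was 1.85-fold higher (0.89 ± 0.18, adjusted p = 0.000202), with 2 of 6 pericyte genes called. Of 10 angiogenic signal genes 2 fell, with 4 lower without PD day 12 replicate 2 and 1 lower without any 1 of 8 other libraries, and of 5 lymphatic genes 1 fell. Of 14 endothelial genes 0 rose and 0 fell, with Pecam1 at 45.3, 75.8 and 174 CPM at day 12 and 68.4, 119 and 196 CPM at day 4 (-0.47 ± 0.35, adjusted p = 0.336). Pecam1 passed, as lower, with 2 surrogate variables (-0.84, adjusted p = 0.00357).

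Most genes of the wound keratinocyte list and part of the basal keratinocyte list were lower at day 12. Of 16 wound keratinocyte genes 12 were lower and 2 higher, with a median of -3.12. Krt6b, an injury-induced keratin, had 1.42, 8.91 and 395 CPM at day 12 and 83, 522 and 7731 CPM at day 4 (-4.90 ± 1.44, adjusted p = 0.00919), and the days overlapped because day 12 replicate 2 reached 395 CPM. The cornified envelope gene Sprr2e (-4.64 ± 1.12, adjusted p = 0.00175) and the cystatin Stfa2 (-4.90 ± 0.72, adjusted p = 4.2e-06) were lower without overlap, and both may share reads with close copies. Whether keratinocytes or other cells of the wound carried the Stfa genes of this list was not tested. Of 12 basal keratinocyte genes 6 fell and 0 rose. Krt14 had 931, 2500.0 and 5554 CPM at day 12 and 4610.0, 7666 and 15680.0 CPM at day 4 (-1.67 ± 0.33, adjusted p = 0.000203), and the integrin Itga6 was 2.26-fold lower (-1.17 ± 0.25, adjusted p = 0.000381). PD day 4 replicate 1 had the highest level of these 3 keratinocyte genes (Krt6b, Krt14, Itga6). Differentiated keratinocyte genes passed in 3 of 17 members, 2 lower and 1 higher, with 4 lower without PD day 12 replicate 2 and 0 lower without PD day 12 replicates 3, 4 or 6 or PD day 4 replicates 1 or 2. Of 14 desmosome genes 1 rose, Dsg2 (1.42 ± 0.33, adjusted p = 0.00111), and 1 fell.

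Of 12 sebaceous gland genes 9 fell and 0 rose. The fatty acid elongase Elovl3 had 36.4, 60.2 and 144 CPM at day 12 and 164, 266 and 437 CPM at day 4 (-1.93 ± 0.36, adjusted p = 0.000112), and Far2, which makes wax alcohols, was 3.57-fold lower (-1.84 ± 0.41, adjusted p = 0.000729). Day 12 replicate 5 had the highest day 12 level of both, 144 CPM of Elovl3 and 210 CPM of Far2. Adipocyte genes passed in 0 of 17 members. Of 22 adult skeletal muscle genes 1 passed, Mb, which encodes the oxygen store myoglobin (1.69 ± 0.51, adjusted p = 0.0111), with overlap, and of 14 muscle regeneration genes 1 passed, the perinatal myosin Myh8 (1.31 ± 0.48, adjusted p = 0.036). The Myh8 call was lost without any 1 of 9 of the 12 libraries (adjusted p = 0.0503 to 0.0829) and without the filter on low counts (adjusted p = 0.0591).

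Growth factor genes changed in both directions. Of 9 EGF family genes 5 fell and 1 rose, with epigen, encoded by Epgn, at -2.60 ± 0.54, adjusted p = 0.00033 and amphiregulin, encoded by Areg, at -1.79 ± 0.39, adjusted p = 0.000664. Without PD day 12 replicate 4 or PD day 4 replicate 1, 2 of the EGF family genes were lower, and without PD day 12 replicates 1 or 5 or PD day 4 replicate 2, 3 were. Vegfa, the main angiogenic factor, had 58.3, 73.7 and 92.5 CPM at day 12 and 116, 224 and 324 CPM at day 4 (-1.55 ± 0.25, adjusted p = 1.14e-05). Of 13 TGF-beta and activin genes 3 fell and 2 rose, near the shares of all genes. Tgfb1 was 2.08-fold lower (-1.06 ± 0.17, adjusted p = 1.03e-05) and the activin chain Inhba 5.67-fold lower (-2.50 ± 0.45, adjusted p = 6.03e-05), whereas the pseudoreceptor Bambi was 6.54-fold higher (2.71 ± 0.45, adjusted p = 2.32e-05). FGF genes rose in 3 of 14 members and fell in 1, also near the shares of all genes. IGF genes rose in 4 of 11 and fell in 1, with 2 higher without PD day 12 replicates 1 or 5 or PD day 4 replicates 5 or 6. Among receptors, Igf1r fell (-1.32 ± 0.20, adjusted p = 5.7e-06) and Fgfr2, the keratinocyte receptor of Fgf7 and Fgf10, rose (1.17 ± 0.18, adjusted p = 9.78e-06). Days did not overlap for Vegfa, Tgfb1, Inhba, Bambi, Igf1r and Fgfr2. Of 11 plasminogen and protease inhibitor genes 6 fell and 1 rose, with the urokinase receptor Plaur at -4.26 ± 0.46, adjusted p = 4.1e-08.

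Immediate early genes and genes of glycolysis and the hypoxia response were lower at day 12. Of 13 immediate early genes 10 fell and 0 rose, with a median of -2.44. Fos, an AP-1 subunit, had 10.7, 24.3 and 41.9 CPM at day 12 and 134, 249 and 467 CPM at day 4 (-3.47 ± 0.42, adjusted p = 2.53e-07). The phosphatase Dusp1 (-3.43 ± 0.36, adjusted p = 2.9e-08) and the NF-kB target Ier3 (-4.03 ± 0.40, adjusted p = 1.22e-08) fell without overlap. The glycolysis and hypoxia list had 12 lower and 0 higher members among 15. The enolase Eno1 had 259, 299 and 352 CPM at day 12 and 729, 843 and 931 CPM at day 4 (-1.47 ± 0.11, adjusted p = 1.14e-10), the glucose transporter Slc2a1 was 5.54-fold lower (-2.47 ± 0.26, adjusted p = 3.13e-08) and Ankrd37, a target of hypoxia-inducible factor, 7.89-fold lower (-2.98 ± 0.33, adjusted p = 4.79e-08). Of 18 respiratory chain genes 0 passed, and of 13 circadian clock genes 2 fell, near the share of all genes. Of 10 Nrf2 and metallothionein genes 5 fell and 1 rose, among them haem oxygenase Hmox1 (-2.64 ± 0.46, adjusted p = 4.29e-05) and the cystine transporter Slc7a11 (-4.04 ± 0.43, adjusted p = 3.27e-08).

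Proliferation genes passed in 2 of 19 members, 1 higher and 1 lower. Mki67, which marks cycling cells, had 81.3, 194 and 319 CPM at day 12 and 112, 141 and 193 CPM at day 4 (0.44 ± 0.22, adjusted p = 0.138). It passed without PD day 12 replicate 1 (adjusted p = 0.0217) and without composition factors (adjusted p = 0.0415). The Schwann cell list had 2 of 9 genes higher and 1 lower, with the neural crest factor Sox10 (1.81 ± 0.33, adjusted p = 6.59e-05) and S100b (1.27 ± 0.32, adjusted p = 0.00262) higher. Melanocytes, another neural crest lineage, also carry Sox10.

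Set beside unwounded skin and PD day 2 wounds, the day 4 to day 12 step took several lists back toward the unwounded level and left others above it. Neutrophil genes summed to medians of 92.3, 5148, 7961 and 77.3 CPM in unwounded skin and at days 2, 4 and 12. Immediate early genes had medians of 718, 2069, 4466 and 810.1 CPM in the same order, so that the day 12 medians of both lists lay near those of unwounded skin. Monocyte and macrophage genes had 417, 3538, 4539.6 and 929 CPM, and each day 12 library lay above the 562 CPM of the highest unwounded sample. That sum includes Cd14, which neutrophils also carry. Matrix collagens had 2953, 8475, 10119.9 and 25244 CPM and melanocyte genes 45.6, 41.1, 35 and 1024 CPM, with each of the 6 day 12 libraries above the 3 unwounded samples for both. These are levels of groups of 3, 5, 6 and 6 libraries, given without a test.

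**Figure D4:**
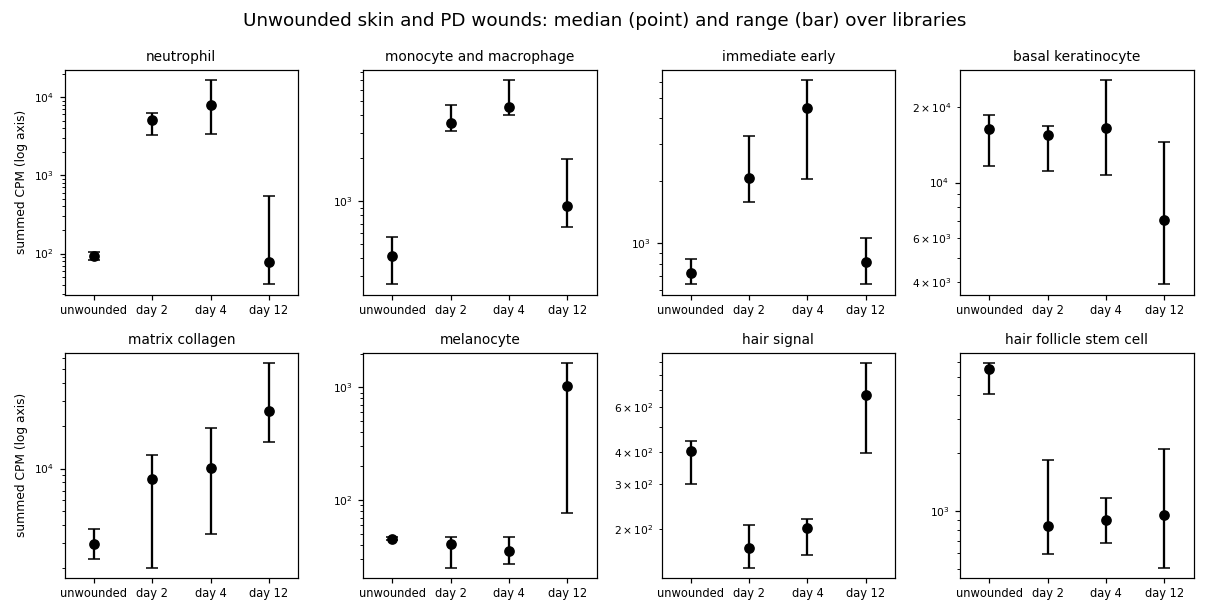
Summed CPM of 8 gene lists on a log axis in 3 unwounded samples and PD wounds of days 2, 4 and 12 (5, 6 and 6 libraries), as median and range. Neutrophil and immediate early sums at day 12 reach the unwounded range, while matrix collagen, melanocyte and hair signal medians at day 12 are the highest of the 4 groups.

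The same step in P wounds shares no library with the PD comparison. In P wounds, 2318 genes (11.2%) were higher and 2604 (12.6%) lower at day 12 than at day 4. Of genes called higher, 1907 were called in both arms, 58.8% of the PD list and 82.3% of the P list. Of genes called lower, 2176 were called in both, 67.5% of the PD list and 83.6% of the P list. The change had the same sign in P wounds for 99.0% of genes called in PD wounds. Across the 20657 genes, which are not independent replicates, Pearson's r of the log2 fold changes was 0.80 and Spearman's rho 0.82. Without P day 4 replicate 3 they were 0.92 and 0.82, with 2352 genes called higher in both arms (72.5% of the PD list, 80.1% of the P list) and 2271 called lower in both (70.4% and 79.8%). Without P day 12 replicate 2, 2014 were higher in both and 2229 lower.

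The difference between arms in the day 12 against day 4 change was tested itself, as an interaction. By edgeR 0 of 20657 genes (0.0%) were called, 623 had an unadjusted p under 0.05 and the smallest adjusted p was 0.683. limma-voom called 1 gene. The DESeq2 Wald test called 89 genes (0.431%), 86 of them with the more positive change in PD wounds and 44 of them hair fibre genes. Inner root sheath genes had a median log2 fold change of 8.99 in PD wounds and 2.04 in P wounds, where 0 of 11 were called. Without P day 4 replicate 3 the P median was 9.76, with 11 of 11 called higher, and Krtap genes in P wounds had a fitted median of 12.19 in place of 2.72, against a fitted median of 12.24 in PD wounds. Without P day 12 replicate 2 the P medians were 2.28 for inner root sheath genes and 2.98 for Krtap genes. By edgeR the interaction called 0 genes without P day 4 replicate 3, with 398 at an unadjusted p under 0.05, and 0 without P day 12 replicate 2, with 609. Cdkn1a had the same log2 fold change of -0.90 in both arms (difference between arms -0.01 ± 0.26, adjusted p = 1).

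**Figure D5:**
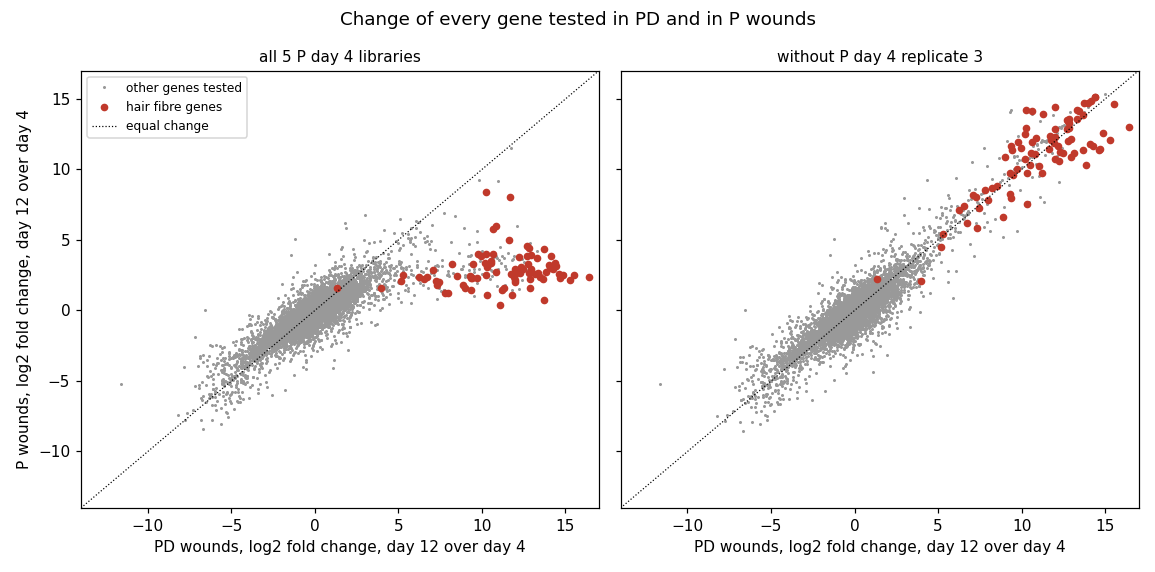
Log2 fold change of day 12 over day 4 in PD wounds (horizontal axis) and P wounds (vertical axis) for each of 20657 genes, with hair fibre genes in red and a dotted line of equal change. With the 5 P day 4 libraries the hair fibre genes lie far below the line, and without P day 4 replicate 3 they lie around it.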

How the data were processed

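Wounds and unwounded skin of mice were snap frozen, total RNA was extracted with TRIzol, and stranded poly(A) libraries were sequenced on an Illumina NovaSeq, per the labels' protocols. The authors deposited raw read counts per gene, with 55414 genes per library. Trimmomatic, HISAT2 2.1.0, SAMtools 1.9, HTSeq and the build GRCm39 are named in the submitters' processing notes. The strand setting and annotation release are not given in the sources used here, so overlapping genes and near-identical families (Krtap, Krt6, Sprr2, Stfa) are uncertain.

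From these deposited counts, genes were kept with edgeR 4.0.16's filterByExpr (minimum count 10, minimum total 15), scaled by TMM factors and fitted with 7 group means over the 36 libraries by robust quasi-likelihood (R 4.3.3). All 20657 genes entered the Benjamini-Hochberg adjustment, and an adjusted p under 0.05 was called. A standard error is the absolute log2 fold change over the square root of F. CPM values are TMM-scaled. Alternatives used DESeq2 1.42.0, limma 3.58.1 (voom) and sva 3.50.0.

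The comparison, the 57 gene lists (736 genes, of which 732 were tested) and the genes named were chosen with earlier results of these data known. The rule named Cdkn1a, the 10 highest and 10 lowest called genes that have a symbol, at least 1 CPM on average and no overlap between days, up to 4 called members of each list by size of change, and list members that missed the threshold; the text gives a subset. No pair of PD replicates agreed within sampling noise (smallest chi-square per degree of freedom 39.86), so none looked like a repeat sequencing of another. Each library was counted as 1 replicate, although this check cannot show that libraries came from different animals. Some genes are not reported here.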

Additional observations from a re-analysis of the deposited data

Results flagged for a closer look

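For each reported gene and each day, the gap between the highest or lowest PD library and its nearest neighbour was divided by the range of the group on the log2 CPM scale. Dixon's 95% limit for 6 libraries was passed in 14 of 214 groups examined, and chance passes it in about 1 in 20 groups.

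PD day 12 replicate 2 stood apart in 6 of these groups. It was highest for Ccl4 (gap over range 0.692; 95.7 CPM, next library 3.66 CPM), Tnf (0.686; 42.3 and 3.88 CPM), Ptgs2 (0.642; 47.1 and 2.98 CPM), Ier3 (0.719; 141 and 45.1 CPM) and Ankrd37 (0.707; 9.54 and 3.92 CPM). It was lowest for Myh8 (0.672; 162 and 594 CPM).

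PD day 12 replicate 5 was lowest for Krtap8-1 (0.736; 1.69 CPM, next library 191 CPM) and Krt34 (0.685; 0.299 and 52.3 CPM). PD day 12 replicate 1 was lowest for Shh (0.724; 5.32 and 18.6 CPM). At day 4, replicate 2 was highest for the inner root sheath keratins Krt71 (0.808; 13.5 and 0.642 CPM) and Krt25 (0.793; 10.8 and 0.122 CPM).

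Single genes stood apart in other day 4 wounds. Replicate 4 was highest for Far2 (0.876; 492 and 271 CPM), replicate 5 for Tgfb1 (0.70; 206 and 149 CPM) and replicate 1 for S100b (0.711; 5.35 and 2.42 CPM).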

How the results depend on the processing

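Of 107 genes reported singly, 8 that were called missed the threshold under at least 1 other setting of the PD comparison. Cxcl2 missed it with the 12 PD libraries fitted alone (adjusted p = 0.0649, against 0.00896), Epgn in those 12 with the replicate block (adjusted p = 0.0722), Klrk1 with limma-voom (adjusted p = 0.101) and Tagln without PD day 12 replicate 6 (adjusted p = 0.0517). The adjusted p-values of Krt34, Krtap3-1, C3 and Myh8 stand beside those genes above, as do those of Adgre1, Pecam1 and Mki67, which passed under some settings only. Acta2, not called, changed sign to 0.08 without composition factors, 0.02 without PD day 12 replicate 5 and 0.08 without PD day 4 replicate 5; its log2 fold change was -0.12, and -0.26 to 0.08 over the wounds left out. Leaving out each PD library in turn gave 2822 to 3379 genes higher, 2838 to 3242 lower and 0 to 0 that differed between arms. Without composition factors 5204 genes were higher. The difference between arms gave 1 call with 2 surrogate variables, 89 with the DESeq2 Wald test and 1 with limma-voom; the cause was not tested. In P wounds limma-voom called 10703 genes, against 4922, and leaving out PD libraries gave 4846 to 5014; without P day 12 replicate 2 the count was 5281 and without P day 4 replicate 3 it was 5780, both chosen after seeing the data. With the amount of muscle as a covariate, a setting chosen after seeing the data, 3235 of the genes called higher and 3187 of those called lower were called again.

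Same-numbered PD libraries of days 12 and 4 share only a number: the correlations of their deviations were 0.18, 0.40, 0.53, 0.11, 0.12 and -0.16 for replicates 1 to 6, and 1 of the 6 correlated best with its own number. With the replicate block 3556 genes were higher and 3604 lower; in the 12 libraries alone with the block, 2593 and 2822. The block moved some lists by over 1.5 times: small proteoglycan and elastic fibre genes had 13 of 17 higher with it (15 in the 12 libraries alone), and in the 12 alone with it 9 of 13 fibroblast genes were higher and 14 of 16 monocyte and macrophage genes lower. With the block 4 of 10 angiogenic signal genes were lower. Depth limits calls for genes of a few counts, such as Il17a.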
